A study of Mus musculus with 8 samples.

Results

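Genes that write, erase and read chromatin marks or remodel nucleosomes were followed in the YTHDF3 RIP-seq peaks of mouse embryonic fibroblasts (MEFs). They were taken as the peaks whose deposited gene name begins with Kdm, Kmt, Setd, Hdac, Chd, Brd, Arid, Ncoa, Ncor or Kat and a digit, or with Smarca to Smarce, together with those named Ep300, Crebbp, Ezh2, Ash1l or Nsd1. Of 87940 deposited peaks, 996 carried such a name, with 179 and 251 in the lists of normal replicates 1 and 2 and 270 and 296 in those of starved replicates 1 and 2. The study's thresholds for a target (an IP/input fold that reaches 2, and p below 0.0001) left 985 of 87096 peaks (1.13%), under 76 gene names. Merging peaks that overlapped by at least 1 base gave 452 regions of these names among 39979 regions in all. Fibroblasts of wild-type C57BL/6 embryos, isolated 13.5 days post-coitum and used at passage 5 to 6, were kept in normal medium or in starvation medium for 2 hours. Each condition had 2 libraries of RNA immunoprecipitated (IP) with an antibody to the endogenous Ythdf3 protein and 2 input libraries made without antibody, so every group shares the same genotype and carries no transgene. Nothing in the labels says that replicates came from separate cultures or embryos, so p-values measure the spread between these samples, which may be technical.

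YTHDF3 is a cytoplasmic protein that binds mRNA carrying N6-methyladenosine (m6A), a methyl mark placed mostly within a short sequence whose core is often GGAC, and it is known to influence translation and decay of the bound mRNA. Chromatin regulators act by a different chemistry, on proteins: methyltransferases and acetyltransferases add groups to histone tails, demethylases and deacetylases remove them, bromodomain proteins bind acetylated lysines, and ATP-dependent complexes of the SWI/SNF and CHD types move nucleosomes. Many of these proteins are very large.

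In the kept peaks the IP libraries held 8818619 and 14397476 reads under normal conditions and 15715472 and 19271667 after starvation, and the inputs held 2507434 to 5157523. These sums cover called peaks alone, so the depth of the libraries is unknown. Of 12 fibroblast markers, 9 had a kept peak (Col1a2, Col3a1, Fbn1, Fn1, Pdgfra, Pdgfrb, Prrx1, Thy1 and Twist2), with 9589 to 22493 input reads per list in their peaks. None of 4 epithelial and none of 4 neural markers had a peak, Kdr alone of 4 endothelial markers had 0 to 5 input reads per list, and every peak carrying the name of the blood marker Csf1r lay on exons of Pdgfrb.

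The sequences below lie at the midpoints of regions called in 6 of these transcripts and need not be the bases that were bound. Each is the central 200 bases of the region with the most IP reads per base in its family, read from mm10 in the direction of transcription, among 17 windows that lay wholly in a coding exon and were spanned by no second annotated gene. The second condition passed over 6 windows of the Setd family with mean densities of 1006 to 1861 IP reads per kb, above the 882 of the one shown. They were exon 8 of Setd1a, which shares exons with Gm49388, and exons 4, 6, 7, 11 and 12 of Setd1b. GGAC is in capitals. The windows are Crebbp exon 2 of 31 (chr16:4179651-4179850, minus strand), Arid1a exon 1 of 20 (chr4:133753251-133753450, minus strand), Kdm5c exon 19 of 26 (chrX:152268851-152269050, plus strand), Brd1 exon 2 of 13 (chr15:88729861-88730060, minus strand), Kmt2d exon 32 of 55 (chr15:98852956-98853155, minus strand) and Setd1a exon 4 of 19 (chr7:127780416-127780615, plus strand).
Crebbp: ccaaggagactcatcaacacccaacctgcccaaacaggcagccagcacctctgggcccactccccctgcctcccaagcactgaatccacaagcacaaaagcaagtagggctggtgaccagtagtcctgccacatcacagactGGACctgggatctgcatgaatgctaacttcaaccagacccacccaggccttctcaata
Arid1a: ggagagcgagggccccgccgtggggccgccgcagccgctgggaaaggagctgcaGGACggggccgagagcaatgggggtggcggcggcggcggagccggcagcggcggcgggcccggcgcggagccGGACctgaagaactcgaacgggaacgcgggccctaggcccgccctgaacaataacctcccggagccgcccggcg
Kdm5c: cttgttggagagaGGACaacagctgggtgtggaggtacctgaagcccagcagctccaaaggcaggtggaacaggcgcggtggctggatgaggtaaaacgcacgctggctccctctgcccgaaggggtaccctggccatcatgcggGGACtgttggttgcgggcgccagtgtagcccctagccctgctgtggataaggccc
Brd1: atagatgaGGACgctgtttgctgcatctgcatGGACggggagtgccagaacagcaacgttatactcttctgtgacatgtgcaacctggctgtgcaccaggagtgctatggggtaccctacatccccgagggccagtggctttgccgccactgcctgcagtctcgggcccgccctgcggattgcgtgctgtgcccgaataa
Kmt2d: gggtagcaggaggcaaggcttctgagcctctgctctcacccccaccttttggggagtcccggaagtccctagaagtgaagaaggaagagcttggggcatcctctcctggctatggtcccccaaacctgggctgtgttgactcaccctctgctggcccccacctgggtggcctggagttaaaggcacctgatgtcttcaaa
Setd1a: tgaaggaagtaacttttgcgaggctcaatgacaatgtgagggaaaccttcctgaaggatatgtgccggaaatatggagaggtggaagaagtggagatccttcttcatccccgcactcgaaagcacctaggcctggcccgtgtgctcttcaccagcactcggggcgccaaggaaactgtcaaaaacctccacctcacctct
The Arid1a, Kdm5c and Brd1 windows held 2 GGAC each, the Crebbp window held 1, and the Kmt2d and Setd1a windows held 0. The mean IP densities of the regions around them were 1734, 1303, 1073, 1815, 1002 and 882 reads per kb in the same order.

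By name, the Kdm, Setd and Kmt families held the most regions called in every list. Of the 452 regions, 81 were called in all 4 lists (17.9%, against 16.3% of all 39979 regions). Demethylases of the Kdm family, with 18 annotated genes, held 20 of them from 102 regions. The Setd methyltransferases, with 8 genes, held 18 from 51, and the Kmt methyltransferases, with 8, held 12 from 35. Further behind were Arid with 8, Brd with 5, Ncoa with 4, Kat with 3, and Hdac, Chd and Smarc with 1 each, and the 5 genes named singly held 6. Counted by kept peaks the order changed in places: Kdm had 214, Setd 125, Arid 104, Ncoa 99, Kmt 92, the single genes 69, Brd 61, Kat 52, Chd 48, Smarc 39 and Hdac 38. Ncoa thus had more peaks than Kmt and fewer regions called in every list. Counted by overlap with annotated exons, Setd held 30 regions called in every list, Arid 28, Kdm 26 and Kmt 25.

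**Figure D1:**
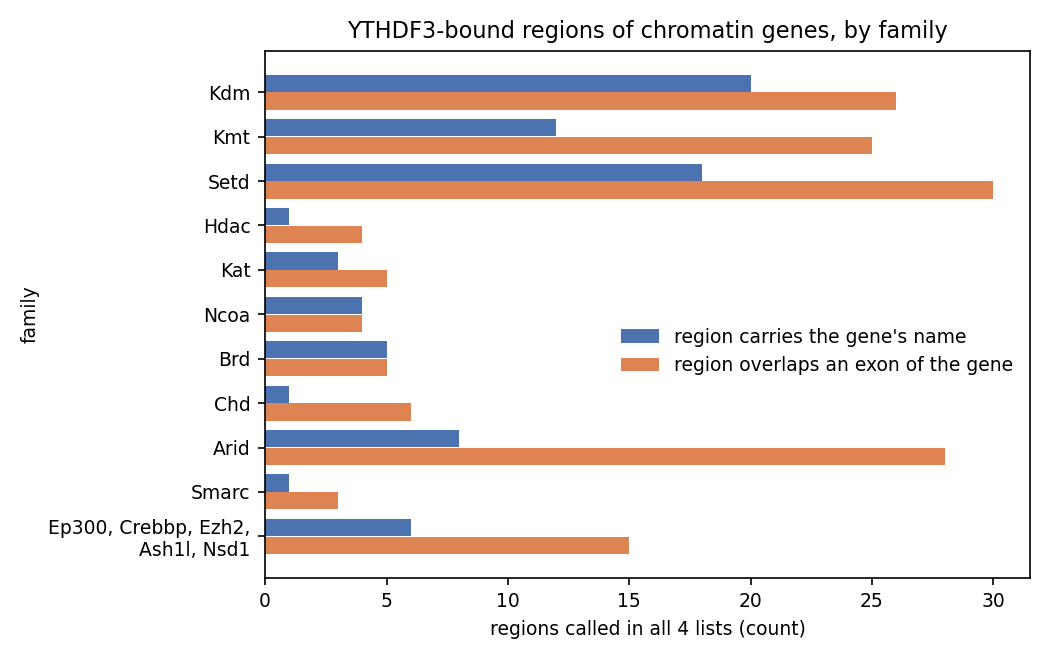
Number of regions called in all 4 lists (x axis, count) for 11 groups of genes (y axis), with regions that carry the gene's deposited name in blue and regions that overlap an annotated exon of the gene in orange. Kdm, Setd and Kmt lead by name with 20, 18 and 12 regions, while by exon Setd has 30 and Arid 28.

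The deposited name is that of the nearest transcript start, and it missed much of the binding on long genes. By overlap with annotated exons (GENCODE M21), these genes held 770 regions, of which 160 were called in all 4 lists (20.8%), and 85 of the 160 (53.1%) carried the name of another gene. Of the Arid1b regions 9 were named Ldhal6b, 7 of the Arid1a regions Pigv, and 6 each of the Kmt2d, Kdm3b and Setd7 regions Prkag1, Reep2 and 5031434O11Rik. In the other direction, 75 of the 81 regions found by name overlapped an exon of the named gene. The 6 that did not were a Brd7 region centred in the 3′UTR of Adcy7, a Kdm1a region in the 3′UTR of Luzp1, a Kdm4b region in an intron of Uhrf1, a pair of Kdm3b regions in exons of Fam53c, and a Chd9 region in an intron of Chd9. Of the 81, 8 regions (9.88%) lay on exons of more than 1 gene and 4 of those on both strands, where reads cannot be told apart because counting by strand is not stated.

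The annotation held 108 protein-coding genes that fit the naming rule, and 75 of them (69.4%) had a kept peak by name, against 34.6% of all 21924 protein-coding genes. By exon, 73 (67.6%) had a region and 41 (38%) had a region called in all 4 lists, against 30.2% and 10.4% of all protein-coding genes. The chromatin genes were also longer, with a median of 5996 exonic bases against 2789 for all protein-coding genes and 5143 for those with a region called in every list. Their longest coding exon had a median of 489 bases, between the 336 of all protein-coding genes and the 671 of those with a region called in every list. The part of length in these shares was not tested.

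Among the methyltransferases, Setd1b, Kmt2d, Setd1a, Kmt2b and Setd7 had the most regions called in every list. All but Setd7 are enzymes of the COMPASS type, which methylate lysine 4 of histone H3, as are Kmt2a and Kmt2c, where few or none were called. Setd1b was called in all 4 lists in 10 regions by name and in 12 of its 14 regions by exon. Setd1a, its close relative, had 6 by name and 8 of 9 by exon. Kmt2b had 5 by name and 8 of 8 by exon, and Kmt2d, an enzyme of enhancers, had 6 by name and 12 of 12 by exon. Kmt2a, the founding mammalian member, was called in all lists in 3 of 32 exonic regions and Kmt2c in 0 of 17. Kmt2e, which carries a SET domain but is not known to methylate lysine 4, had 1 region called in all lists, centred in its 5′UTR. The region was also named 5031425E22Rik, and 343 of its 2970 bases lay on Kmt2e exons. IP reads there were 504 and 125 in normal and 1395 and 803 in starved MEFs. The peaks spanned 1520 and 530 bases in normal and 2680 and 2150 in starved MEFs. IP levels, scaled by peak length and by reads in the regions called in every list, overlapped. They were 47.8 and 26.7 in normal and 43.2 and 32.1 in starved MEFs, with a fitted log2 change of -0.10. Setd7, a small methyltransferase of histone and non-histone proteins, was called in every list in all of its 8 exonic regions, although only 1 of them carried its name.

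The region with the highest mean fold of all these genes was the start of Setd1b (chr5:123142051-123142670, exon 1 of 17, in the 5′UTR). It held 298 and 286 IP reads in normal and 786 and 666 in starved MEFs, over 41 and 52 and over 91 and 78 input reads. The gene lies in the span of the antisense lincRNA Gm26745, whose exons cover 0 bases of the 5 Setd1b regions passed over above. Its log2 IP/input folds were 2.55, 2.46, 1.89 and 2.51 in normal replicates 1 and 2 and starved replicates 1 and 2, with a mean of 2.35. The fold of starved replicate 1 was below the other lists, which lay close together. Over the whole Setd family the median of the mean log2 folds was 1.79 (range 1.18 to 2.35), against 1.58 for Kmt (1.37 to 2.06) and 1.39 for Kdm (1.13 to 1.94).

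Nsd1, a methyltransferase whose loss causes overgrowth in people, had 29 kept peaks (5, 3, 9 and 12 in the lists of normal replicates 1 and 2 and starved replicates 1 and 2). By name 1 region was called in all lists, and by exon 6 of 27. The named region, in coding exon 5 of 23 (chr13:55246611-55248280), held 75 and 725 IP reads in normal and 708 and 887 in starved MEFs, so that normal replicate 1 was low and its peak there covered 230 bases against 1320 in normal replicate 2. Ash1l, a related enzyme, had 3 kept peaks by name, 0 in the normal lists, 2 in starved replicate 1 and 1 in starved replicate 2. By exon it had 12 regions, and 0 were called in every list by either measure. Kept peaks under any name covered 0 and 726 of its coding bases in normal and 1323 and 568 in starved MEFs. Of its 5′UTR bases they covered 79 and 374 in normal and 0 and 393 in starved MEFs. Ezh2, the catalytic subunit of Polycomb repressive complex 2, had no peak by name or exon. Setd5 had 34 kept peaks (2, 6, 16 and 10), with 1 region called in every list, and Setd2, which methylates histones behind the elongating polymerase, had 5 kept peaks, all in starved lists.

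Among the demethylases, Kdm5c stood first of all these genes by number of peaks. This X-linked enzyme, which removes methyl groups from lysine 4 of histone H3, had 73 kept peaks (13 and 22 in normal and 15 and 23 in starved MEFs) and 8 regions called in every list. In its last and longest region (chrX:152270131-152275870, centred in exon 26 of 26), IP reads were 2945 and 4139 in normal and 6976 and 7006 in starved MEFs, with 798, 1597, 904 and 1333 input reads. Kdm6b, which erases the Polycomb methyl mark and is known as a stress-responsive gene, had 2 such regions. The larger spanned chr11:69403381-69408960, held 4454 and 6764 IP reads in normal and 12051 and 11115 in starved MEFs, and had log2 folds of only 1.12, 1.15, 1.05 and 1.36. Of the regions found by name, the lowest mean fold, 1.13, was that of Kdm2b in coding exon 19 of 23 (chr5:122880081-122881050), with folds of 1.13, 1.14, 1.01 and 1.26 from 252, 356, 259 and 604 IP reads and 93, 162, 55 and 168 input reads. By exon, regions in exon 17 of 23 of Kdm6b (1.07) and in the last exon of Crebbp (1.08) were lower. Kdm5a had no peak by name but 12 regions on its exons, 2 of them called in every list. Kdm3a, Kdm4c, Kdm4d and the Y-linked Kdm5d had none by either measure.

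Deacetylases had few peaks. Of 11 annotated Hdac genes, 5 had a named peak and 3 had a region on an exon, and Hdac1, Hdac2 and Hdac3, the class I enzymes of the large corepressor complexes, had none by either measure. The class II enzyme Hdac4 carried 21 of the 38 kept Hdac peaks and 4 regions called in every list by exon. Its named region, in coding exon 6 of 27 (chr1:92001961-92002390), rested on few reads: 41, 70, 109 and 20 IP reads and 9, 21, 19 and 1 input reads. The fold of 2.15 in starved replicate 2 was computed against 3 input reads and is a lower bound.

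The paired acetyltransferases Ep300 and Crebbp (p300 and CBP) had their named regions near their 5′ ends, where a name given by the nearest transcript start places them. Crebbp had 3 kept peaks in each list, and its 3 named regions lay in exons 1, 2 and 3 of 31. Exon 2 (chr16:4179191-4180310) held 1104 and 1613 IP reads in normal and 2377 and 2486 in starved MEFs, with log2 folds of 1.54, 1.70, 1.63 and 1.81. In exon 1 (chr16:4212911-4214120) the values were uneven, with 205 and 663 IP reads in normal and 94 and 1332 in starved MEFs and folds of 1.14, 3.14, 1.52 and 1.90. By exon, Crebbp had 4 further regions called in every list under the name Trap1, centred in exons 5 and 31 and in introns. The last, in exon 31 (chr16:4083511-4086310), held 301 and 2591 IP reads in normal and 1958 and 3862 in starved MEFs, with folds of 1.05, 1.13, 1.10 and 1.06. Ep300 had 25 kept peaks (3, 8, 5 and 9) and 2 regions called in every list, in exons 1 and 2 of 31. Its exon 1 region (chr15:81585301-81586900) held 966 and 1256 IP reads in normal and 1724 and 1879 in starved MEFs, with folds of 1.45, 1.44, 1.26 and 1.8. Of the Kat enzymes, Kat6a had 2 named regions at its 5′UTR. The larger (chr8:22861381-22862900) held 259 and 627 IP reads in normal and 382 and 847 in starved MEFs, with folds close in every list (1.35, 1.42, 1.38 and 1.43). Kat5 (TIP60) and Kat8 (MOF) had no peak by name or exon.

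Of the nuclear receptor coactivators, Ncoa3 (a p160 protein) had 51 kept peaks (12, 13, 9 and 17) in 19 named regions, of which 3 were called in every list. The largest of the 3, in coding exon 12 of 23 (chr2:166054171-166055870), held 298 and 455 IP reads in normal and 680 and 913 in starved MEFs, with folds of 1.55, 1.10, 1.70 and 2.15. Ncoa1 and Ncoa2, the other p160 genes, were called in all lists in 0 of 9 and 0 of 25 exonic regions.

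Among bromodomain genes, Brd1, a scaffold of histone acetyltransferase complexes, had 34 kept peaks and 3 of the 5 Brd regions called in every list. Its exon 2 region (chr15:88729141-88730780) held 75 and 1376 IP reads in normal and 2345 and 2287 in starved MEFs. Normal replicate 1 was far below the other lists, with a peak of 200 bases against 1440 in normal replicate 2, but its fold of 1.27 was within the range of theirs (1.06 to 1.31).

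Of the remodelling genes, the ARID subunits of the SWI/SNF complexes were bound most. Arid1a and Arid1b, alternative subunits of BAF, were called in all lists in 10 of 15 and 11 of 19 exonic regions, and Arid2, of the PBAF form, in 5 of 17 with 41 kept peaks. At exon 1 of Arid1a (chr4:133752241-133754460) there were 2111 and 3086 IP reads in normal and 4440 and 5524 in starved MEFs. The folds there were 1.48 in both replicates numbered 1, and 2.41 and 2.46 in those numbered 2, so they separated by replicate number and not by condition. The long exon 15 of Arid2 (chr15:96369751-96372980) held 170 and 1146 IP reads in normal and 757 and 1187 in starved MEFs, with folds of 1.93, 1.36, 1.59 and 1.17. Of the 13 Smarc genes, which include both SWI/SNF ATPases and the core subunits, 5 had a named peak. Smarcd1 alone held a region called in every list by name (chr15:99700051-99702620, at its promoter and start, with folds of 1.57, 1.60, 1.68 and 1.69), whereas Smarcb1, Smarcc1, Smarcc2 and Smarce1 had none by either measure. Of the CHD remodellers, Chd9 had 1 such region by name, Chd8 had 3 by exon, and Chd6 had 14 exonic regions with 1 in every list although no peak carried its name.

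In all, 33 of the 108 annotated genes had no kept peak by name. Of these, 4 (Brd8, Chd6, Kdm5a and Smarcd3) had regions on their exons, and 29 had none by either measure. Genes at low RNA level and genes with RNA that was not bound cannot be told apart in these lists, which hold reads of called peaks alone.

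Peaks of several of these genes covered the coding sequence from end to end. Setd1b and Setd7 had 100% of their coding bases under kept peaks in all 4 lists. For Kmt2b the shares were 99.5% and 99.4% in normal and 99.5% and 100% in starved MEFs, and for Setd1a 94.4%, 100%, 94.0% and 100%. Arid1b covered 58.4% and 97.4% in normal and 98.4% and 100% in starved MEFs, with normal replicate 1 apart from the other lists. Kdm5c (74.8%, 100%, 79.2% and 100%) and Kmt2d (72.1%, 94.3%, 85.2% and 93.6%) were covered more in the replicates numbered 2. Ep300 differed from these in that 23.4%, 33.5%, 25.3% and 28.4% of its coding sequence was covered, and Crebbp was intermediate (31.7%, 67.2%, 53.2% and 59.3%).

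**Figure D2:**
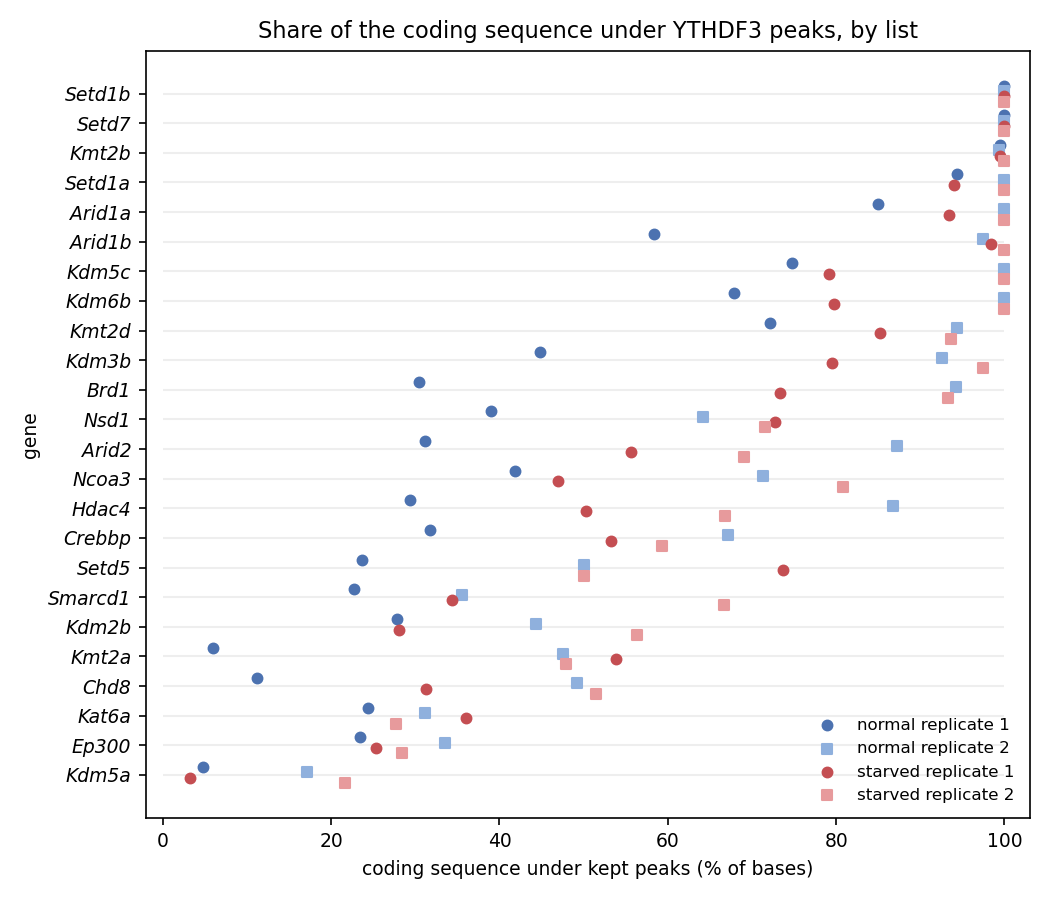
Share of coding bases under kept peaks (x axis, percent) in each of the 4 lists for genes with at least 2 exonic regions called in every list (y axis). Setd1b and Setd7 sit at 100% in all lists, while Ep300 stays between 23.4% and 33.5%.

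The share of genes covered to this extent was close to that among all bound genes. At least 90% of the coding bases were covered in every list in 4 of the 73 chromatin genes with an exonic region (5.48%) and in 378 of all 6631 such genes (5.70%). At least 50% was covered in 9 (12.3%) and in 860 (13%). Among genes with a coding sequence of at least 5000 bases the counts were 3 of 30 (10%) against 28 of 488 (5.74%) for the higher share, and 6 (20%) against 60 (12.3%) for the lower. Over all 73 genes together, peaks covered 23.4% and 39.5% of coding bases in normal and 37.9% and 41.0% in starved MEFs, against 21%, 28.2%, 26.5% and 32.4% over all bound genes. The 5′UTR was covered for 33.0%, 42.2%, 43.7% and 55.4% of its bases (29.8%, 28.5%, 30.4% and 39.3% over all) and the 3′UTR for 23.6%, 27.8%, 29.3% and 26.9% (17.9%, 21.2%, 24.4% and 21.4%). The chromatin genes were above all bound genes in each list and each segment.

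Within a gene, the regions differed in fold about as much as the lists did. The 10 Setd1b regions had mean log2 folds from 1.55 to 2.35, with an SD of 0.22 between regions and a mean SD of 0.29 between the 4 lists. In Kdm5c the first region, at the 5′UTR, had the lowest mean fold (1.03, 1.07, 1.26 and 1.64), and the fifth, in exon 18, the highest mean (1.68, 1.86, 2.02 and 2.18). The SD between its 8 regions was 0.24 and the mean SD between lists 0.23. Kmt2b had its highest mean fold at the 5′ end (2.07, 2.13, 1.56 and 2.46). So did Kmt2d, where the first region had 1.91, 1.83, 1.46 and 2.31. That region had its centre outside annotated genes, with 191 of its 1700 bases on Kmt2d exons. Regions of 1 gene share their transcript and are not replicates of each other.

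**Figure D3:**
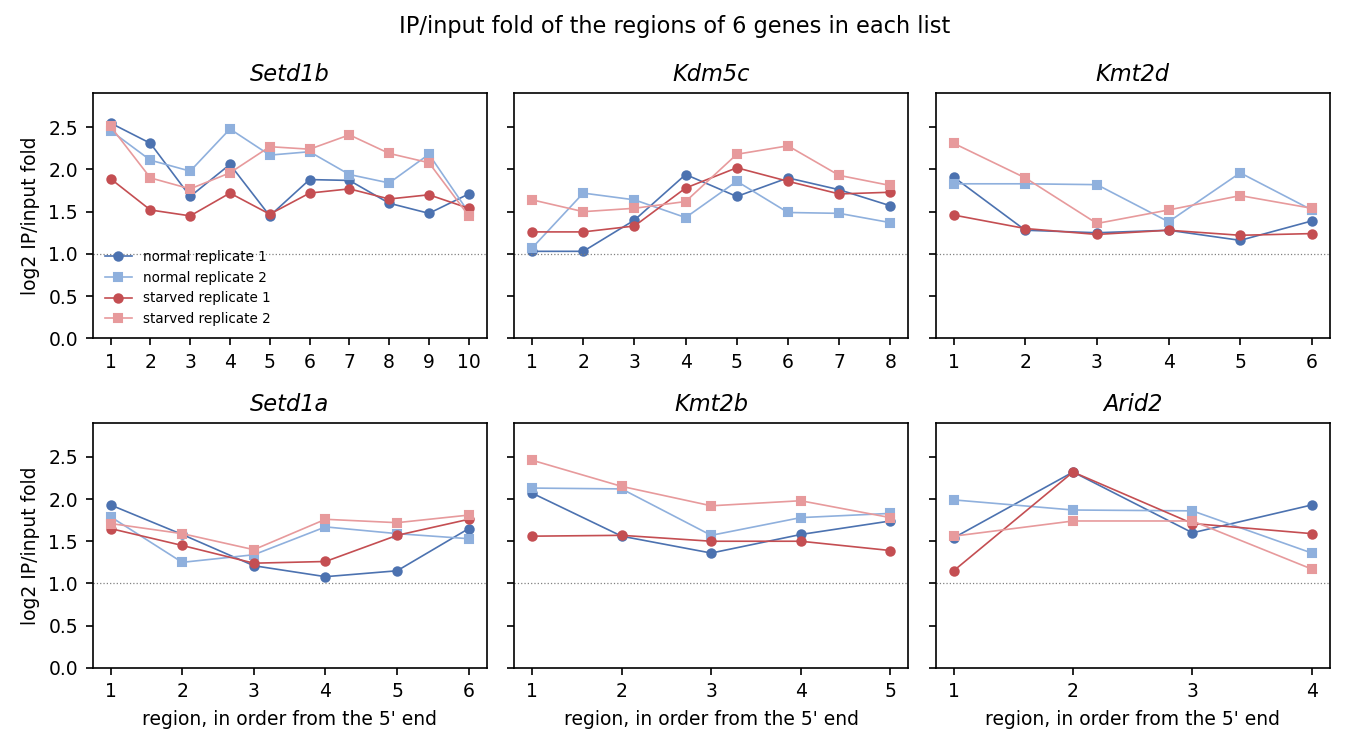
Log2 IP/input fold (y axis) of the regions called in all 4 lists, in order from the 5′ end (x axis), for 6 genes, with a line for each list and a dotted line at the threshold of 1. The Kdm5c values rise from 1.03 to 1.64 in the first region to 1.68 to 2.18 in the fifth, and the lists spread as widely as neighbouring regions.

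Enrichment over input was slightly lower for the kept peaks of chromatin genes than over all kept peaks in each list. The median log2 fold of their kept peaks was 1.56 and 1.5 in normal and 1.49 and 1.55 in starved MEFs, against 1.64, 1.61, 1.57 and 1.64 over all kept peaks. Peaks found in 1 replicate were found in the other about as often as elsewhere: 68.4% of the peaks of normal replicate 1 overlapped a peak of normal replicate 2, and 66% of those of starved replicate 1 overlapped a peak of starved replicate 2, against 63.2% and 62.4% over all peaks. In the reverse direction the shares were 48.8% and 57.5%, against 47.5% and 56.1%.

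By position, 47 of the 81 regions (58.0%, 95% Wilson interval 47.2% to 68.2%, which covers counting error only) had their centre in coding sequence, against 58.8% of all 6531 regions called in every list. The 5′UTR held 16.0% of the centres, against 9.17%, and the 3′UTR 3.70%, against 17.5%. By exon the 3′UTR share was 9.38% and the 5′UTR share 8.75%, so the 5′UTR share stood above that of all regions by name alone. Where the centre fell in a coding exon, that exon had a median length of 471 bases by name and 255 by exon, against 202 over all regions. Exons over 400 bases held 51.1% of these centres by name and 36.9% by exon, against 32.5%.

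GGAC, searched on the transcribed strand, occurred in 46 of 78 central windows of 200 bases (59.0%, 95% Wilson interval 47.9% to 69.2%), against 61.8% of 6387 windows over all regions. By exon it was 55.4% of 157 windows. Centres in coding exons gave 66%, against 65%. The windows of chromatin genes had a GC content of 58.6%, against 55.1%. The longer motif GGACT, which contains GGAC, occurred in 17.9%, against 21.8%. A match describes the letters of the window and is not evidence of a methylated site.

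Starvation was followed first by the presence of peaks. Of the 452 regions, 23 (5.09%, against 4.70% of all regions) were called in both starved lists and in neither normal list, and 2 (0.442%, against 1.30%) in both normal lists and neither starved list. The 23 lay under 15 gene names, with 4 at Setd5 and 2 each at Chd8, Kdm3b, Kdm6b, Nsd1 and Smarcd1. The region with the most reads, named Brd2, held 6097 and 5930 IP reads and 1232 and 1716 input reads in starved MEFs, and the 4 of Setd5 together held 1519 and 1468 over 283 and 374. The 2 regions of normal lists alone were in Hdac4 (99 and 166 IP reads) and Nsd1 (47 and 158). Nsd1 thus had regions of both kinds. The starved IP lists held more reads in peaks than the normal lists, and the part of depth in the higher number of starved regions was not tested.

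The regions called in all 4 lists were then tested for a change between conditions, as the IP/input ratio, as IP reads per base and as input reads per base, with edgeR's quasi-likelihood test and Benjamini-Hochberg adjustment over all 6531 regions. None of the 81 regions by name, and none of the 160 by exon, passed at an adjusted p under 0.05 in any of these tests. For the ratio, 0.0153% of all regions passed as higher and 0% as lower. For IP reads per base 0.0919% passed as higher and 0.750% as lower, and for input reads per base 0.230% and 0.995%. DESeq2 and limma gave 0 calls among the 81, of which DESeq2 tested 79 for input reads. Over all regions DESeq2 called 0.567% higher and 2.01% lower for IP reads and 0.498% and 1.63% for input reads, and limma 0.0766% and 0.352% for IP reads and 0% in both directions for input reads. No region met a 1.8-fold change of the IP/input fold with 1 direction in both replicate numbers, against 0.230% of all regions higher and 0.322% lower. These comparisons held only regions with a kept peak in every list, so a peak lost in either condition could not show in them. The lowest adjusted p among the 81 was 0.999 for the ratio, 0.238 for IP reads and 0.251 for input reads (edgeR).

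At an unadjusted p under 0.05 the ratio was higher for 2 of the 81 regions (1.26% of all regions) and lower for 1 (1.55%). The higher ones were in Kdm3b exon 1 (log2 change 0.72, SE 0.29) and in the Ncoa3 exon 12 region (0.60, SE 0.25), and the lower was the second region of Setd1b (-0.52, SE 0.24). For IP reads per base, 9 of the 81 (11.1%) were higher, against 2.80% of all regions, and 0 were lower, against 7.06%. Of the 9, 6 were in Setd1b and the others in Setd1a, Arid1b and Brd2. With genes matched by exon, 10 of 160 regions (6.25%) were higher and 1 (0.625%) was lower. For input reads per base 3 (3.70%) were higher, against 2.83%, and 0 were lower, against 5.21%. The ratio spanned -0.52 to 0.72 over the 81 regions with a median of -0.01, against -0.02 over all regions. Leaving out single libraries gave calls in 0 to 2 of the 81 regions per test and direction. IP calls were at the Kdm4b region (log2 change 2.55 without normal replicate 1, against 1.19% of all regions called higher), an Ncoa3 region (1.61 without normal replicate 2, 0.674%), the exon 5 region of Arid2 (-2.38 without starved replicate 1, 1.38% called lower) and the exon 1 region of Crebbp (-1.49 without starved replicate 2, 2.43%). Input calls were at Kdm4b and Arid1b without normal replicate 1 (0.766% of all regions) and at Ncoa3 without normal replicate 2 (1.03%), where the library left to stand alone held 1 input read at Kdm4b and 0 at Ncoa3.

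IP levels stood higher in the starved lists more often than lower, and so did input levels. Scaled per kb of peak and per 1000000 reads in the regions called in every list, IP levels in both starved lists were above those in both normal lists in 38 of the 81 regions (46.9%, against 18.8% of all regions) and below in 5 (6.17%, against 19.3%). Input levels were above in 31 (38.3%, against 20.1%) and below in 7 (8.64%, against 17.0%). The 38 regions lay in 17 of the 33 genes with such regions and included all 10 of Setd1b, all 5 of Kmt2b, 5 of 6 of Setd1a and both of Ep300 and Arid1b. The 5 lower regions were 4 of Kmt2d and 1 of Arid2. The median fitted log2 change of IP reads per base was 0.12 over the 81 regions and -0.10 over all, and that of input reads 0.07 and -0.08. A change in the number of cells of a kind and a change in RNA per cell cannot be told apart in bulk samples. The levels count reads only under the peaks that each list called, and peak lengths differed between lists. The part of these lengths was not tested.

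In Setd1b all 10 regions had a fitted change above 0 in both IP and input, none past the adjusted threshold. Its IP level, in reads per kb and 1000000 reads over the 10 regions, was 91.5 and 90.6 in normal and 154 and 140 in starved MEFs, and its input level 78.4 and 61.1 against 137 and 99.0. The groups did not overlap in either. The fitted log2 change of IP reads per base was 0.41 to 0.83 in the 10 regions, with 6 under an unadjusted p of 0.05 and none under an adjusted one. The largest, in the region of exon 9 (chr5:123156741-123158080), was 0.83 (SE 0.22, adjusted p = 0.238, edgeR), from 674 and 799 IP reads in normal and 2306 and 1885 in starved MEFs. Input reads changed by 0.31 to 1.11 and the ratio by -0.52 to 0.17, which includes both directions. IP levels of its relatives stood in the same order, with 68.3 and 62.5 in normal and 92.2 and 82.7 in starved MEFs for Setd1a, and 71.1 and 68.1 against 93.8 and 85.5 for Kmt2b. Kmt2d, of the same enzyme class, did not share it: its IP levels were 101 and 125 in normal and 93.5 and 106 in starved MEFs, and overlapped.

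The other genes varied in how the lists ordered. Arid1b had IP levels of 50.8 and 52.6 in normal and 78.2 and 86.9 in starved MEFs over its 2 named regions. The log2 differences were 0.62 and 0.72 by replicate number, and the input levels 56.9 and 31.3 against 97.0 and 65.6. Over its 11 exonic regions the IP levels were 57.7 and 59.8 against 77.4 and 83.5, with smaller differences of 0.42 and 0.48. Brd2, a BET protein, had 30.3 and 27.9 against 65.5 and 39.8 in its 1 region, with input levels of 29.5 and 28.4 against 59.4 and 34.3. Neither gene overlapped between the groups. Kdm5c had IP levels of 114 and 102 in normal and 117 and 117 in starved MEFs, with input levels of 111, 111, 105 and 109. For Ep300 the IP levels were 90.0 and 89.0 against 130 and 100, without overlap. Its input levels, 98.9 and 98.0 against 140 and 95.3, overlapped. For Crebbp the IP levels were 114 and 106 against 120 and 130 over its 3 named regions. Over its 7 exonic regions they were 84.0 and 90.5 against 86.3 and 113, which overlap. Brd1 had 42 in normal replicate 1 and 79.1, 91.0 and 92.7 in the other lists. The 1 region named Chd9, in an intron with 0 bases on Chd9 exons, had 59.3 against 95.6, 97.2 and 118. The 1 region on an exon of Chd9 had 21.5 and 23.4 in normal and 19.4 and 26.5 in starved MEFs. The 1 named region of Hdac4 was low in starved replicate 2 (8.59, against 29.6, 20.4 and 27.4). Over the 4 exonic regions of Hdac4 the levels were 44.7 and 34.7 in normal and 43.4 and 33.5 in starved MEFs. Kat6a (35.1, 51.5, 31.3 and 49.5), Arid2 (31.1, 38.4, 31.0 and 39.1) and Nsd1 (47.1, 62.3, 36.9 and 50.4) were higher in the replicates numbered 2 in each condition. Ncoa3 had 27.0 and 32.0 in normal and 35.8 and 36.5 in starved MEFs, which did not overlap. The input levels of Ncoa3, 23.3 and 37.1 against 33.2 and 29.2, did. Smarcd1 had IP levels of 30.6, 28.3, 29.9 and 32.1, which overlapped.

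**Figure D4:**
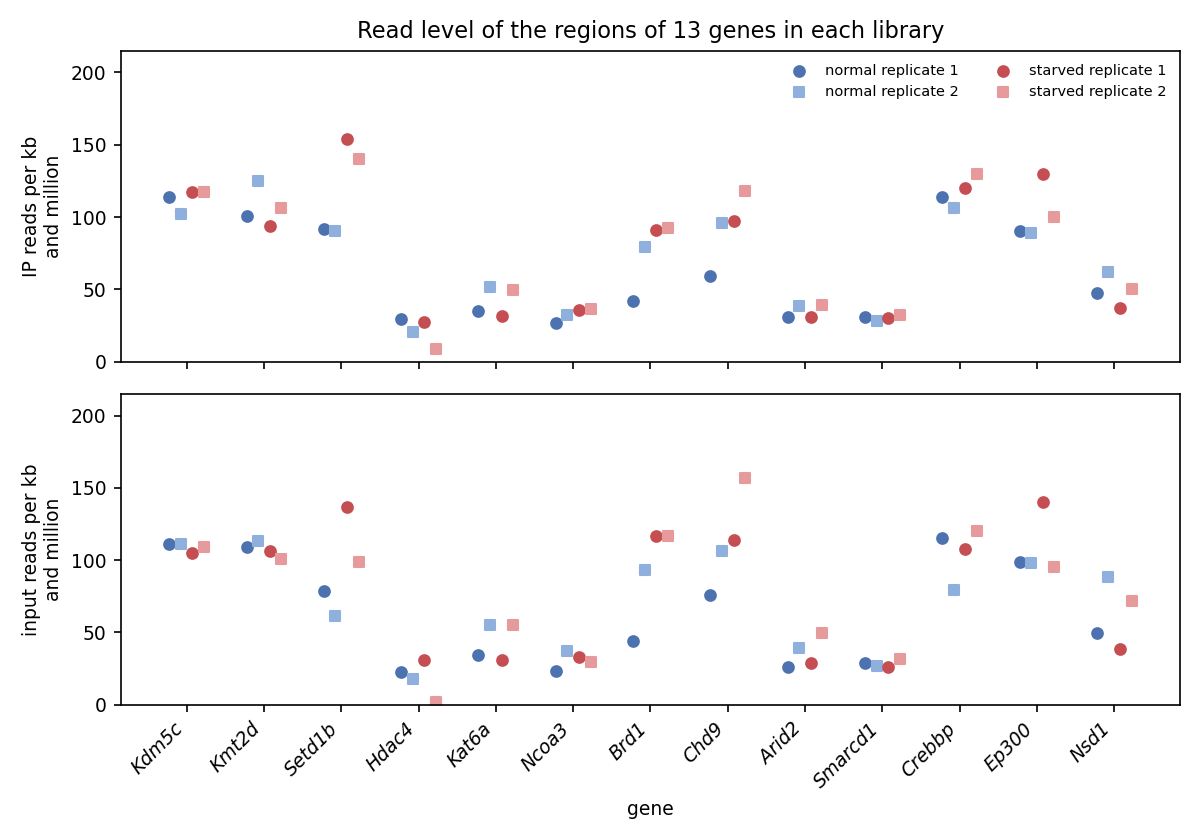
IP reads (upper panel) and input reads (lower panel) of 13 genes (x axis), with a point for each library. Levels (y axes) are per kb of peak and per 1000000 reads in the regions called in every list. They cover the regions that carry each gene's name, which for Chd9 is 1 intronic region. Setd1b lies at 91.5 and 90.6 in normal and 154 and 140 in starved MEFs in the IP, and at 78.4 and 61.1 against 137 and 99.0 in the input.

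**Figure D5:**
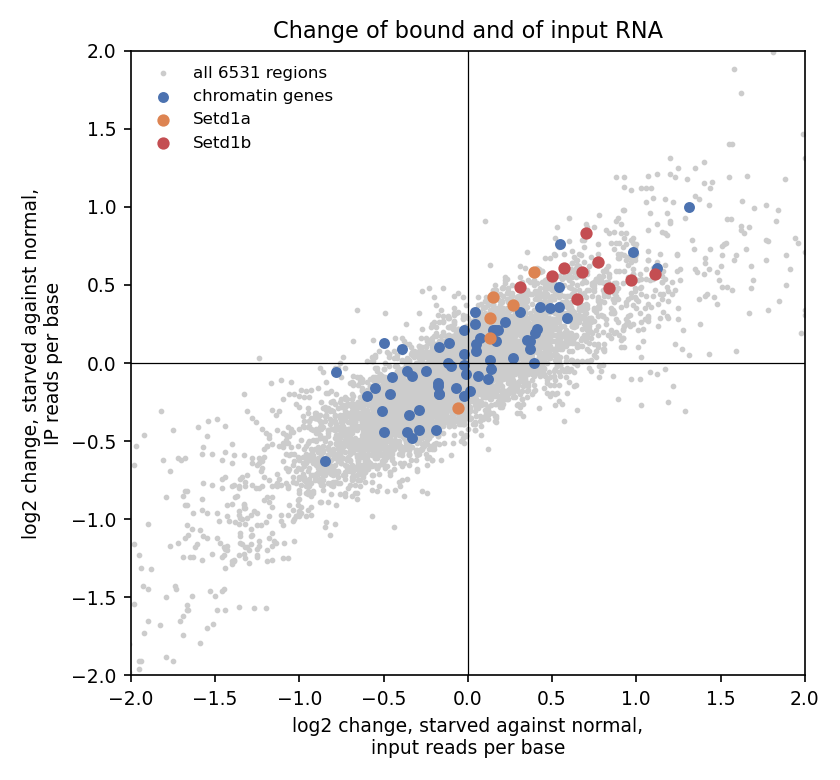
Fitted log2 change, starved against normal, of input reads per base (x axis) and of IP reads per base (y axis) for the 6531 regions called in every list (grey; 104 lie outside the axes), with the chromatin genes in blue, Setd1a in orange and Setd1b in red. The Setd1b regions lie at 0.31 to 1.11 in the input and 0.41 to 0.83 in the IP, along the band of all regions.

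A list of 112 further chromatin genes, which holds partners of these enzymes in complexes and other chromatin enzymes, was counted in the same way, by name. Of 110 annotated, 74 had a kept peak, with 1056 peaks and 96 regions called in every list. Of the 96, 65 were centred in the gene they were named for and 31 elsewhere. Partners of the KAT complexes had 24 of 25 regions centred in the named gene (Brpf1, Brpf3, Jade1, Jade2, Kansl1 and Msl2). For partners of the BAF complexes it was 9 of 31 (Bcl7a, Bicra and Bicral), since all 20 regions named Dpf1 were centred in Sipa1l3. COMPASS partners had 7 of 10 (Hcfc1), Polycomb genes 6 of 6, with Asxl1, Cbx2 and Cbx8 among them, and the TIP60 group 6 of 6 (Ep400 and Trrap). Further demethylases (Phf2 and Phf8) had 4 of 4, ISWI genes 4 of 5, the NuRD gene Gatad2a 2 of 3, genes of DNA methylation 2 of 3 (Dnmt3a and Tet3), further methyltransferases 1 of 2 (Setdb1) and the sirtuins 0 of 1. Median log2 folds were 1.52, 1.63, 1.44 and 1.83. None of the 96 passed any of the edgeR tests. At an unadjusted p under 0.05, IP reads were higher in 9 (2.80% of all regions) and lower in 1 (7.06%), input reads higher in 9 (2.83%) and lower in 2 (5.21%), and the ratio higher in 1 (1.26%) and lower in 3 (1.55%). Jade1 alone gave 5 of the 9 for IP and 6 of the 9 for input, from 7 regions of 1 transcript. The 1.8-fold rule was met by a region named Nsd2 alone, with folds of 2.43 and 2.81 in normal and 1.44 and 1.38 in starved MEFs and with 20 and 21 against 152 and 219 IP reads. Both normal folds were computed against 3 input reads, and the region lay outside annotated exons at its centre.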

How the data were processed

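YTHDF3 RIP-seq was performed by the authors in normal and nutrient-starved MEFs, with 2 IP libraries and 2 inputs per condition. The authors aligned paired-end reads to mm10 with TopHat2 2.0.13 after trimming, called peaks of each IP library against an input with diffReps and named them with HOMER. Per the file headers each peak has an IP and an input value. The authors' values for normal replicate 2 are counts of reads. Those deposited for the other lists are a signal, reads multiplied by 1 factor per library, which gave whole reads within rounding for all but 1 input value each in normal replicate 1 and starved replicate 1. The deposited p-value of each peak was used for filtering, and the authors' log2 fold column was not used. The lists do not name their input, and the input with the same group and number was assumed.

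Peaks were kept where the IP value reached 2 times the input value and p was below 0.0001. They were merged into regions at an overlap of 1 base. The fold of a region was its summed IP reads over its summed input reads, with at least 3 input reads assumed, times the factors. Regions present in every list entered edgeR 4.0.16 (quasi-likelihood test, TMM, Benjamini-Hochberg) in R 4.3.3, with DESeq2 1.42.0 and limma 3.58.1 (on log2 of the value plus 1) as alternatives. The merging and the test were tested on simulated data. Exons came from GENCODE M21, sequences from mm10 with pysam 0.24.0. Python 3.11.15 and matplotlib 3.10.9 were used for the rest.

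The members, the lists of further chromatin genes and markers, and the genes named were chosen with earlier results of these data known. Genes named by rule are, per family, that with the most regions called in all lists, the 5 single genes, the regions of highest and lowest fold, the genes with most peaks and those with no peak. Other genes were chosen after their values were seen. A few genes that count in the totals are not reported here. Library depth outside peaks was not analysed here.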

Additional observations from a re-analysis of the deposited data

How the results depend on the processing

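With peaks limited to a fold of at least 4, 0 chromatin regions of 200 were called in all 4 lists (1.57% of all regions), and the median log2 folds of the peaks were 2.27, 2.22, 2.13 and 2.29 in normal replicates 1 and 2 and starved replicates 1 and 2. With a p under 1e-10 there were 49 of 169 (29.0%, against 23.5% of all regions), and with genes matched by exon 160. With 3 lists in place of 4 the count was 90 to 117. At 1.8-fold in replicate number 2 alone, 2 regions were higher and 2 lower (3.38% and 1.82% of all regions), and in replicate number 1 alone 0 and 0. With RLE normalization, DESeq2, limma or at least 20 reads per library no member region that was tested was called. Without a single library, with the lone sample assumed to vary like the others, the calls ranged from 0 to 1 for IP reads higher (0.184% to 1.19% of all regions) and for IP reads lower (1.38% to 2.63%), and from 0 to 2 for input reads higher (0.138% to 1.03%). GGAC was found in 37.2% of windows of 100 bases (40% over all regions) and in 80.8% of windows of 300 bases (74.8%), so the order against all regions turned at 300 bases, and GGACT in 17.9% (21.8%). The median change of IP reads in these genes minus that of all regions, chosen after seeing the data, stayed at 0.17 to 0.29 over 10 fits, and that of the ratio ran from -0.06 to 0.04. The causes were not tested.

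The replicates share only a number. Deviations of same-numbered libraries correlated with r = 0.28 over all regions and 0.44 over the 81 chromatin regions, from 2 pairs. With a replicate block, 3 member regions passed edgeR for IP reads as higher. They were exon 1 of Arid1b (log2 change 0.71, adjusted p = 0.0413, edgeR) and the Setd1b regions starting at 123147331 (0.61, adjusted p = 0.0446, edgeR) and 123156741 (0.82, adjusted p = 0.0351, edgeR). For input reads 2 passed, at Arid1b (1.03, adjusted p = 0.0146, edgeR) and at the Setd1b region starting at 123142711 (1.08, adjusted p = 0.0228, edgeR), and for the ratio 0. Over all regions the block raised the calls from 6 higher and 49 lower to 84 and 191 for IP reads, and from 15 and 65 to 92 and 202 for input reads.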
